A study of Mus musculus with 9 samples.

Results

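The genes described here encode the neurofilament subunits Nefl, Nefm, Nefh and Ina, the microtubule-associated proteins Map2, Mapt and Map1b, and the growth cone proteins Stmn2 and Gap43. They were chosen by name, with earlier results of these data known. They are 9 of 22180 genes with a probe set that the platform annotation gives to that gene alone. Each gene was read from the probe set with the highest mean. Expression was read on 9 Affymetrix gene arrays of cells from the embryonic cortex of wild-type CD1 mice, 3 arrays for each of 3 cultures. The neurons came from embryos of day 16 (E16) and were grown for 5 days in total by one protocol in the labels and for 4 by another, so it is not settled whether they match the age of the neurons in the co-culture. The precursors came from embryos of day 13 (E13) and were grown for 1 day. The co-culture consisted of E16 neurons grown for 4 days, onto which E13 precursors were then placed for 1 more day. The labels call the arrays of a group independent biological replicates. The p-values rest on a spread per gene within groups, pooled over all 3 groups and drawn by limma toward that of other tested genes. The model did not pair arrays of different groups. All groups are unsorted cultures, which can hold other cells than those they are named for.

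Neurofilaments are the intermediate filaments of neurons, and their subunits assemble into long polymers that fill axons and set their calibre. Ina, alpha-internexin, is made early in neuronal development, Nefl and Nefm follow, and Nefh, the heavy subunit, accumulates late as axons mature. Tau, encoded by Mapt, and Map1b bind microtubules in axons, whereas Map2 is found mainly in the dendrites and cell bodies of mature neurons. Stmn2, also called SCG10, is a stathmin family protein that destabilises microtubules in growth cones, and Gap43 is a palmitoylated growth cone protein of growing axons.

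Of the 9 members 3, Ina, Map2 and Map1b, matched the RefSeq promoter table (GRCm38.p6), and their upstream sequences are shown for that reason alone, not for their values. Each stretch is the 250 bases before the gene's annotated start, read 5′ to 3′ on the gene's own strand. Capitals mark matches, on either strand, to 5 motifs: the TATA box TATAAA, the parts CAGCACC and GGACAGC of the RE1 element bound by the repressor REST, the E-box CAGATG used by neurogenin and NeuroD factors, and the GC box GGGCGG of Sp1. No marked matches overlap each other.
Ina, chr19:47014431-47014680, plus strand: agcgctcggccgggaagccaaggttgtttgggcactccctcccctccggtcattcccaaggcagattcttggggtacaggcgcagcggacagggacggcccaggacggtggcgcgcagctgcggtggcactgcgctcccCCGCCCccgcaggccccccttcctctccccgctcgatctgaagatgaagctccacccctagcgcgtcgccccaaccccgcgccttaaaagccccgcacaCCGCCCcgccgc
Map2, chr1:66175079-66175328, plus strand: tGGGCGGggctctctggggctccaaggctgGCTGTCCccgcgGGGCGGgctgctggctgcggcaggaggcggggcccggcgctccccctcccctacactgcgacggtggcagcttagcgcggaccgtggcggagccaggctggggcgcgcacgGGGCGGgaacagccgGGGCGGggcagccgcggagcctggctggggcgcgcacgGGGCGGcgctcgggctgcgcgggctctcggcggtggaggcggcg
Map1b, chr13:99516603-99516852, minus strand: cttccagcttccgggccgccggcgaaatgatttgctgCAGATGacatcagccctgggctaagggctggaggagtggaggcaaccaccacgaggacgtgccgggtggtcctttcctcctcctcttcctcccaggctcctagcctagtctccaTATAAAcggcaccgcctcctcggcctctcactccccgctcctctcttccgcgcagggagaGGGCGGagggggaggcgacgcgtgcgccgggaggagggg
The GC box was present in all 3 sequences, with 5 matches in Map2, and in 32.7% of all 32851 promoter stretches of this length. Map1b also held TATAAA, 99 bases before the start and present in 12.4% of all stretches, and CAGATG, present in 14.4%. Map2 held 1 match to GGACAGC (5.28% of all stretches), and CAGCACC (5.73%) was in none of the 3. G and C made up 70.8% of the Ina stretch, 81.2% of Map2 and 66.4% of Map1b, against a median of 52.4%. A match describes the letters of the window and is no evidence that a factor binds there.

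Levels are log2 values after RMA normalisation, so a step of 1 is a doubling, and they are compared between cultures for a gene but never between genes. A gene was tested when 3 or more arrays showed it above the median probe set, which left 13012 genes in 1 limma model, 8 of the 9 members among them. Array medians lay between 6.75 and 6.79, and arrays of a group correlated at 0.988 to 0.994 over all probe sets. The residual SD of the tested members was 0.019 to 0.078 (median 0.031), against a median of 0.080 over all tested genes. The neuron markers Rbfox3, Snap25, Syt1, Slc17a7 and Syp were above the array median on every array of all 3 groups, the precursor arrays included.

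Nefm could not be assessed by its own probe set. The neuron arrays read 6.57, 6.57 and 6.58, the precursor arrays 6.55, 6.57 and 6.57, and the co-culture arrays 6.55, 6.61 and 6.49. These values overlap between groups and are below the array median on all 9 arrays, so the gene was left out of the test. Fitted without the filter, neurons differed from precursors by 0.0098 (SE 0.048, limma adjusted p = 0.908). A second probe set, 17301590, is listed for Nefm and for A230070E04Rik, a long non-coding RNA whose locus overlaps that of Nefm in the RefSeq table, and cannot be given to either gene. It was chosen for display after its values were seen, and read 7.63, 7.60 and 7.57 on the neuron arrays, 7.16, 7.30 and 7.24 on the precursor arrays and 7.38, 7.41 and 7.32 on those of the co-culture. The 3 groups of this probe set did not overlap. Neurons exceeded precursors by 0.37 (SE 0.049, limma adjusted p = 1.05e-04). The co-culture was lower than neurons (co-culture minus neurons -0.23, adjusted p = 0.00285) and did not pass against precursors (0.14, adjusted p = 0.142).

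**Figure D1:**
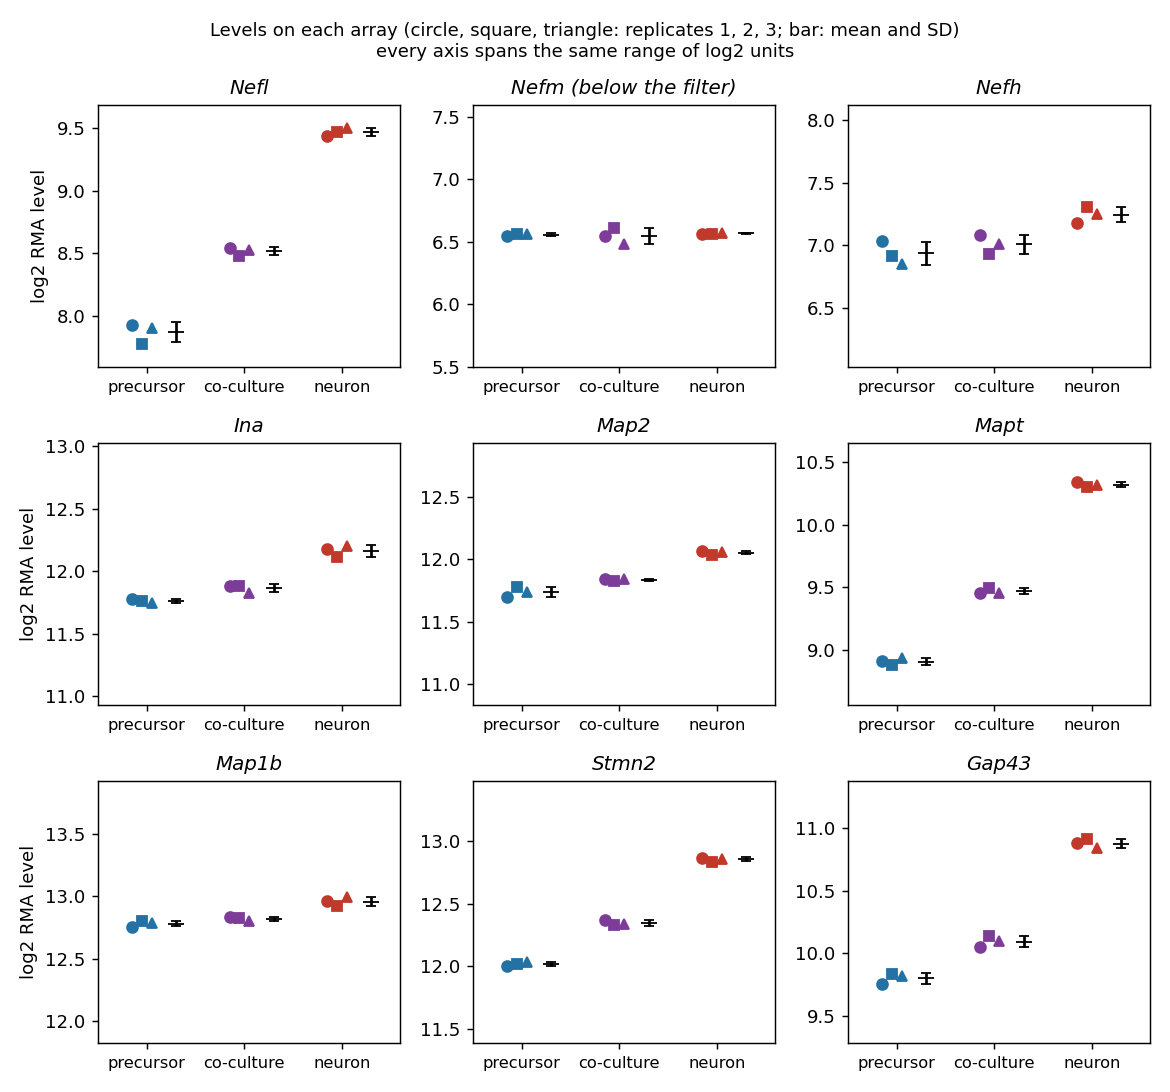
Log2 RMA level of each gene on the 9 arrays, with the group mean and SD (n = 3) beside the points. Every vertical axis spans the same range, so the steep rise of Nefl from 7.87 in precursors to 9.47 in neurons can be set against the small rise of Map1b from 12.78 to 12.96, and Nefm stays near 6.56 throughout.

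Neurons alone were first set against precursors alone. All 8 tested members were higher in neurons, by 1.13-fold (Map1b) to 3.03-fold (Nefl), and their neuron arrays all lay above their precursor arrays. Of all tested genes, 28.0% were called higher in neurons and 35.2% lower, and 29.5% had neuron arrays that all lay above the precursor arrays. The median log2 difference was 0.62 over the 8 members and -0.020 over all tested genes. Embryo age and days in culture differ along with cell type, and their parts cannot be told apart. In RNA from whole cultures, fewer cells of a type and less RNA per cell cannot be told apart either.

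Among the neurofilament subunits, Nefl, the light subunit around which the others assemble, differed most. Its levels were 9.44, 9.47 and 9.50 in neurons and 7.93, 7.78 and 7.90 in precursors. The neuron arrays thus lay far above every precursor array. The difference of 1.60 (SE 0.050, limma adjusted p = 5.77e-09) was larger than that of 98.2% of all tested genes. This rank is by signed difference, so every gene lower in neurons counts as smaller.

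Ina, the subunit made earliest, read 12.18, 12.11 and 12.20 in neurons and 11.78, 11.76 and 11.75 in precursors. The 2 groups were well separated, with a difference of 0.40 (SE 0.043, adjusted p = 2.04e-05). Nefh, the late subunit, read 7.18, 7.30 and 7.25 in neurons and 7.03, 6.91 and 6.85 in precursors. The lowest neuron array stood only a little above the highest precursor array. The difference was 0.31 (SE 0.062, adjusted p = 0.00156), and Nefh had the largest residual SD of the tested members, 0.078. Its levels lay close to the array medians.

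Among the microtubule-associated proteins, tau stood apart. Mapt read 10.34, 10.31 and 10.32 in neurons and 8.91, 8.88 and 8.93 in precursors. The spread within each group was small beside the gap between them, a 2.67-fold difference (log2 1.42, SE 0.039, adjusted p = 3.19e-09). Map2 read 12.06, 12.04 and 12.06 in neurons against 11.70, 11.78 and 11.74 in precursors, and the groups were 0.32 apart (SE 0.040, adjusted p = 6.74e-05). Map1b, a microtubule-associated protein of young axons, read 12.96, 12.92 and 12.99 in neurons and 12.76, 12.80 and 12.78 in precursors. Its groups did not overlap, but the difference of 0.18 (SE 0.040, adjusted p = 0.00314) was the smallest of the tested members. With its sign it exceeded that of 71.9% of all tested genes, which include the genes lower in neurons.

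Both growth cone genes were clearly higher in neurons. Stmn2 read 12.86, 12.83 and 12.86 in neurons and 12.001, 12.02 and 12.04 in precursors. Neither group varied by more than a few hundredths, and the difference was 0.83 (SE 0.038, adjusted p = 5.52e-08), or 1.78-fold. Gap43 read 10.88, 10.91 and 10.84 in neurons and 9.75, 9.84 and 9.82 in precursors. The groups did not overlap, and the fold was 2.11 (log2 1.08, SE 0.045, adjusted p = 3.17e-08). In this comparison the signed differences of Stmn2, Gap43, Mapt and Nefl exceeded those of 92.6% to 98.2% of all tested genes. Those of Map1b, Nefh, Map2 and Ina exceeded 71.9% to 83.1%. These percentages count genes lower in neurons as exceeded, whatever the size of their difference.

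The next question was which levels differ when precursors are grown on neurons, although RNA of these neurons is also in the sample. Of the 8 tested members 4 were higher, namely Nefl, Mapt, Stmn2 and Gap43, and 0 were lower, while 8.22% of all tested genes were called higher and 0.200% lower. The median difference was 0.19 over the members and 0.020 over all tested genes. For 7 members every co-culture array lay above every precursor array, as for 19.4% of all tested genes.

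Nefl read 8.54, 8.48 and 8.53 in the co-culture, all 3 above the highest precursor array at 7.93. It was 1.57-fold higher than in precursors (log2 0.65, SE 0.050, limma adjusted p = 4.07e-05). Mapt read 9.46, 9.50 and 9.46, again above every precursor array, and was 1.48-fold higher (log2 0.57, SE 0.039, adjusted p = 2.11e-05). Stmn2 read 12.37, 12.33 and 12.34 and differed by 0.33 (SE 0.038, adjusted p = 5.19e-04). Gap43 read 10.05, 10.13 and 10.09 and differed by 0.29 (SE 0.045, adjusted p = 0.00303).

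The members with small differences between the separate cultures did not pass here. Ina read 11.88, 11.88 and 11.83 in the co-culture and differed from precursors by 0.099 (95% interval 0.0037 to 0.20, adjusted p = 0.252). Map2 read 11.84, 11.82 and 11.84 and differed by 0.095 (95% interval 0.0055 to 0.18, adjusted p = 0.238). The arrays of both genes lay just above their precursor arrays. Map1b read 12.83, 12.82 and 12.80, the last level with the highest precursor array to 2 decimals, and differed by 0.038 (95% interval -0.052 to 0.13, adjusted p = 0.740). Nefh read 7.08, 6.93 and 7.01, which overlaps the precursor arrays, and differed by 0.073 (95% interval -0.067 to 0.21, adjusted p = 0.670).

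Against neurons, all 8 tested members were lower in the co-culture, and their arrays did not overlap. Of all tested genes 24.9% were called lower, and 27.3% had co-culture arrays that all lay below the neuron arrays. Nefl fell by 0.95 (SE 0.050, limma adjusted p = 2.82e-07), Mapt by 0.85 (adjusted p = 1.34e-07), Gap43 by 0.79 (adjusted p = 4.80e-07) and Stmn2 by 0.51 (adjusted p = 2.61e-06) on the log2 scale. Smaller were the falls of Ina by 0.30, Nefh by 0.24, Map2 by 0.22 and Map1b by 0.14, the last with an adjusted p of 0.0128. The 3 comparisons share their arrays in pairs and are not independent of each other. For 7 members, Nefh being the exception, the neuron arrays lay above the co-culture arrays and these above the precursor arrays, as for 15.4% of all tested genes.

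**Figure D2:**
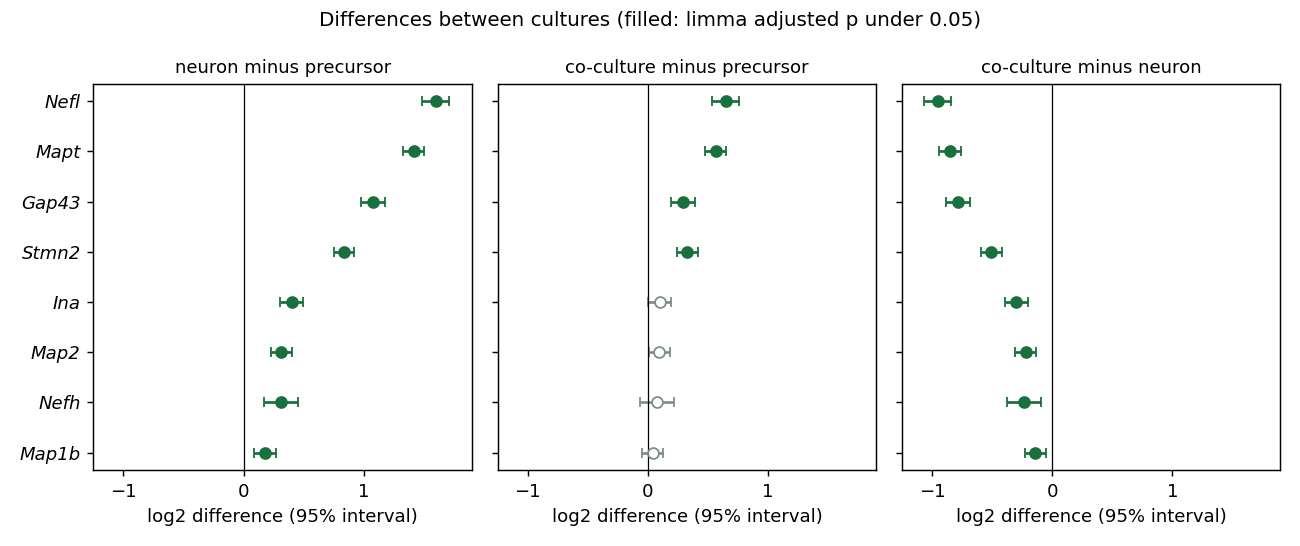
Log2 differences between cultures for the 8 tested genes, with 95% intervals from the limma model, on a common scale. Filled points passed an adjusted p of 0.05: all 8 for neurons minus precursors and for the co-culture minus neurons, and 4 for the co-culture minus precursors.

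The co-culture contains RNA of both cell types, so its levels were also placed between those of the separate cultures on the linear scale, with precursors at 0% and neurons at 100%. Stmn2 lay at 32.6% ± 2.51 (SD, n = 3), Mapt at 28.7% ± 1.49, Nefl at 27.9% ± 1.64 and Map2 at 27.8% ± 2.88. Gap43 lay at 20.2% ± 3.34, Ina at 22.4% ± 7.62 and Map1b at 20.6% ± 8.81. For Nefh the 3 arrays gave 44.9%, -0.65% and 22.0%, too wide a range to place it. The median over the 8 members was 25.1%, close to the 24.7% over the 3637 genes called higher in neurons (quartiles 17.9% and 33.3%).

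**Figure D3:**
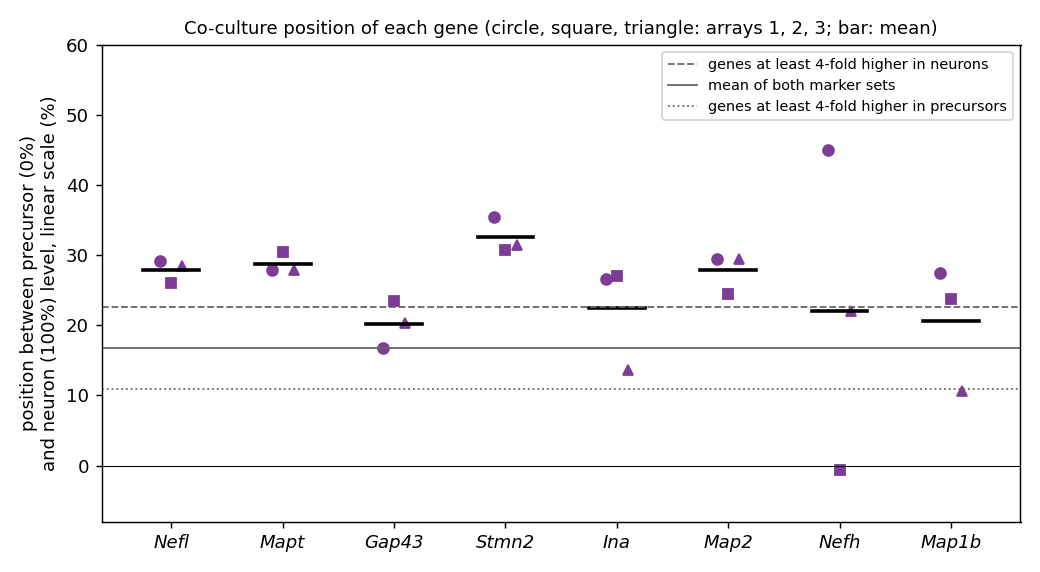
Position of each co-culture array between the precursor level (0%) and the neuron level (100%) of a gene, on the linear scale, with the mean as a bar. Horizontal lines mark the medians of genes with a 4-fold or larger excess in neurons (22.6%) or in precursors (10.9%) and the mean of both (16.7%). All arrays of Stmn2, Mapt, Nefl and Map2 lie above the 22.6% line, and the arrays of Nefh scatter most. Error in the precursor and neuron levels is not shown.

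Marker genes gave an apparent neuron share of 16.7% ± 1.08 (SD, n = 3), the mean of 22.6% ± 1.18 from 105 genes with a 4-fold or larger excess in neurons and 10.9% ± 2.21 from 109 genes with such an excess in precursors. No member was among these genes, and the SDs are over the co-culture arrays alone. Against the level that mixing at 16.7% predicts, 1 of 8 members, Mapt, was higher, by 0.21 (SE 0.035, limma adjusted p = 0.0448), where 0.361% of all tested genes were called higher. That share lies below the median position of the genes called higher in neurons, 24.7%. An upward departure was thus favoured for such genes, all 8 members included, while the 0.361% also counts genes that are not higher in neurons. The call for Mapt was lost with the replicate number as a block (adjusted p = 0.124), without any 1 of the 9 arrays (0.0590 to 0.329) and at the share of 22.6% (0.482), where the departure was 0.10. Over all 21 alternatives its adjusted p ranged from 0.00146 to 0.809. Nefl departed by 0.22 (SE 0.044, adjusted p = 0.0947) and Stmn2 by 0.15 (SE 0.034, adjusted p = 0.182), neither past the threshold. The other 5 members departed by 0.0070 to 0.045, with adjusted p-values of 0.789 to 0.970.

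Other genes of the neuronal cytoskeleton were read from 5 lists of 75 genes. Beside each list count stand the shares over all tested genes. In neurons against precursors these were 28.0% higher and 35.2% lower, and in the co-culture against precursors 8.22% higher. The list counts were not tested against these shares. The other intermediate filaments went in both directions between neurons and precursors, with 2 of 6 tested genes higher, 3 lower and a median of -0.47. Nestin, the filament protein of neural precursors, was lower in neurons by a log2 value of -1.81 (adjusted p = 6.43e-07, limma), the nuclear lamin Lmnb1 by -1.52 and vimentin, Vim, by -0.73. Synm, which encodes the intermediate filament protein synemin, was higher by 0.64. Lmna, the other gene called higher, differed by 0.15 (limma adjusted p = 0.0453). Its precursor arrays (6.70, 6.63 and 6.64) were below every array median. It passed the filter by the other groups alone, which favours a higher level in neurons. Peripherin (Prph), a neurofilament partner of peripheral neurons, Gfap and Des were below the filter. Prph averaged 6.62 in neurons, 6.41 in precursors and 6.26 in co-cultures.

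Of 20 tested microtubule-associated protein genes outside the members, 13 were higher in neurons and 2, Clasp1 and Ckap5, lower, with a median of 0.25. Map7d2, which recruits kinesin to microtubules, differed by 1.50 (SE 0.062), a step similar in size to that of Mapt, and Map9 by 1.27. Map1a, the relative of Map1b that is made later in development, differed by 0.94, and Map6, a microtubule stabiliser, by 0.89. In the co-culture 6 of these 20 genes were above precursors, where 8.22% of all tested genes were, among them Map7d2 (0.58), Map9 (0.42) and Map1a (0.34). Map6 (0.24, adjusted p = 0.0234) was also above, but did not pass without the filter (0.0568), without precursor replicate 2 (0.0866) or without any 1 of co-culture replicates 1 to 3 (0.0661, 0.0788 and 0.0878).

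Of 14 stathmin, CRMP and growth cone membrane genes, 11 were higher in neurons and 1, Marcks, lower (median 0.36). Stmn4, a neuronal stathmin, differed by 1.06, Nrgn, a calmodulin-binding protein of dendrites, by 1.44, Gpm6a by 0.74 and Crmp1 by 0.54. Nrgn was dim in precursors, at 7.03, 6.65 and 6.55, the last 2 below every array median. Stmn1, the stathmin that is also abundant in dividing cells, was at 10.59 in neurons and 10.61 in precursors and did not pass (-0.025, adjusted p = 0.623; 0.019 with cyclic loess). The co-culture was above precursors for 4 of these 14 genes, and for 8.22% of all tested genes. These 4 were Stmn4 by 0.31, Gpm6a by 0.23, Dpysl5 by 0.17 and Nrgn by 0.49. Dpysl5 (adjusted p = 0.0462) passed in 8 of 19 alternatives (0.00575 to 0.185). It did not pass without the filter (0.119), with cyclic loess (0.0817), with the replicate block (0.0828) or with only the 2 groups compared (0.0594). Nor did it pass without neuron replicates 1 (0.0630) or 3 (0.0538), without precursor replicates 2 (0.122) or 3 (0.144) or without any co-culture replicate (0.150, 0.185 and 0.0841 for 1 to 3). Nrgn (adjusted p = 0.0390) did not pass without the filter (0.0730), without neuron replicate 1 (0.0620), without precursor replicates 2 (0.140) or 3 (0.131), or without any co-culture replicate (0.130, 0.120 and 0.0957 for 1 to 3).

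Of 16 tested genes for enzymes that act on tau and other microtubule-associated proteins, 10 were higher in neurons and 2, Mark2 and Mark3, lower (median 0.31), although Mark2 did not pass with cyclic loess (adjusted p = 0.102). Cdk5r2, an activator of the tau kinase Cdk5, differed by 1.42, Mapk10 and Mapk9, both JNK kinases, by 0.98 and 0.62, and Mark4 by 0.51. In the co-culture 2 of the 16 were above precursors, where 8.22% of all tested genes were, Cdk5r2 by 0.46 and Mapk10 by 0.27. Mapk10 (adjusted p = 0.0205) did not pass without precursor replicates 2 (0.0795) or 3 (0.0760) or without co-culture replicates 1 (0.0888) or 2 (0.0811).

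Of 10 tested genes for the axon initial segment, the spectrin skeleton and neurofilament linkers, 9 were higher in neurons and 0 lower (median 0.49). Ank2, an axonal ankyrin, differed by 0.85, the spectrins Sptbn1 and Sptbn4 by 0.73 and 0.62, and Trim46, which bundles microtubules in the proximal axon, by 0.65. Sptbn4 was dim in precursors, with a mean of 6.71 that is below every array median. Nfasc, a cell adhesion molecule of the initial segment, differed by 0.083 (adjusted p = 0.200) and passed with cyclic loess (0.15, adjusted p = 0.0261). Ank2 (0.27), Sptbn1 (0.23) and Sptbn4 (0.24) were also above precursors in the co-culture, as were 8.22% of all tested genes. Sptbn4 (adjusted p = 0.0167) did not pass without precursor replicate 2 (0.0634) or co-culture replicate 3 (0.0661).

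**Figure D4:**
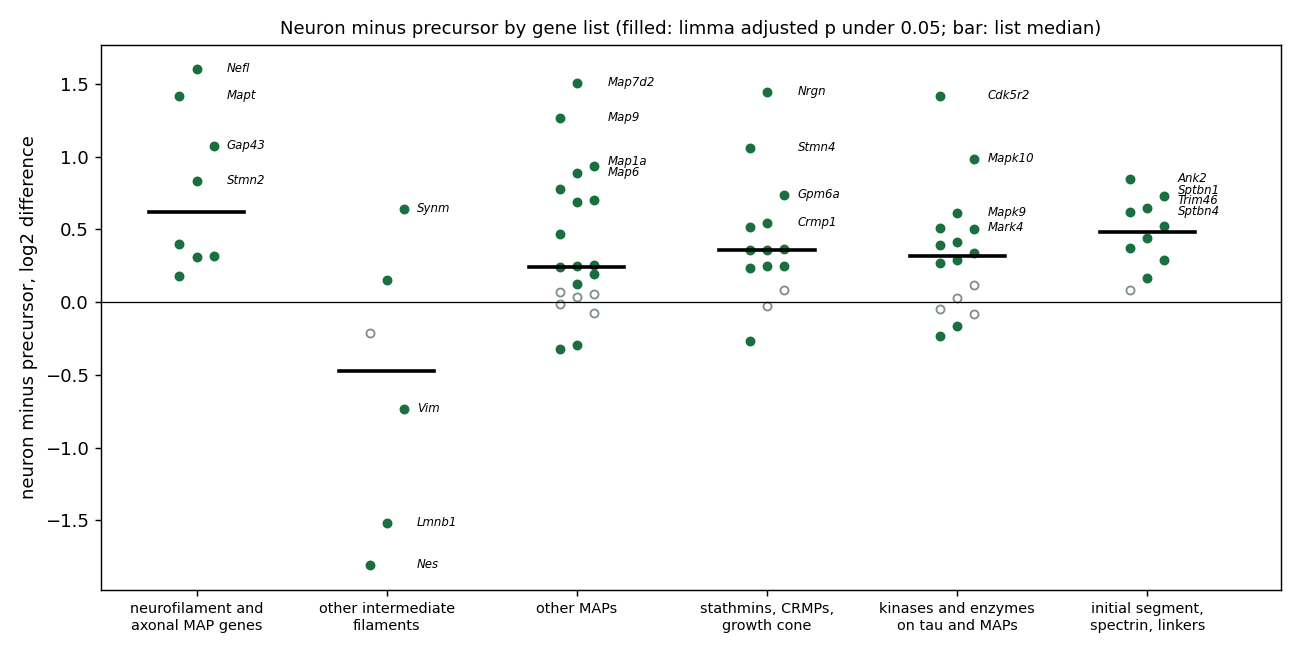
Neuron minus precursor log2 differences of the tested genes in each list, with filled points past an adjusted p of 0.05 and the list median as a bar. The medians are 0.62 for the neurofilament and axonal genes and -0.47 for the other intermediate filaments, where Nes and Lmnb1 are lowest at -1.81 and -1.52.

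Marker lists of cell types differed in direction. Of all tested genes 28.0% were higher in neurons than in precursors and 35.2% lower. All 5 neuron markers were higher in neurons than in precursors (median 0.98) and all 6 precursor markers lower (median -1.99). The summed level of the neuron markers on the log2 scale was 13.55 to 13.63 for the neuron arrays, 12.32 to 12.46 for precursors and 12.75 to 12.79 for co-cultures, the same order of cultures as for the members. That of the precursor markers was 10.17 to 10.41, 12.23 to 12.31 and 12.16 to 12.18. Among GABAergic interneuron markers Gad1 was higher in neurons and Gad2, Dlx2 and Dlx5 were lower, with summed levels of 11.58 to 11.71, 11.86 to 12.13 and 11.87 to 12.05 in the same order. Endothelial markers were lower in neurons in 3 of 3 tested cases (8.61 to 8.72, 9.24 to 9.34 and 9.23 to 9.61). Pecam1 and Kdr among them were below the array median on all neuron arrays. They passed the filter by the other groups alone, which favours a lower level in neurons. Cldn5 was below the array median on all arrays and was not tested. Of the microglial markers 1 of 3 tested was higher and 1 lower (9.53 to 9.68, 9.80 to 9.91 and 9.71 to 9.75), and P2ry12 and Itgam were below the array median on all arrays. The higher gene, Aif1, was below the array median on all precursor and co-culture arrays and passed the filter by its neuron arrays alone. Of the oligodendrocyte lineage markers 1 of 4 tested was lower (9.68 to 9.73, 9.58 to 9.75 and 9.64 to 9.83), and of the meningeal markers 0 of 3 passed (8.78 to 9.10, 8.86 to 9.12 and 8.94 to 9.88). Co-culture replicate 2 stood apart in the meningeal genes Dcn (8.25, against 6.97 and 6.42 on the other co-culture arrays) and Lum (7.47, against 6.43 and 5.50), and without it no tested member changed its call in any of the 3 comparisons between cultures. Of the 4 astrocyte markers 1 was tested, Aldh1l1, which was higher in neurons by 0.33 (adjusted p = 0.0138), the direction of the members, but did not pass without precursor replicates 2 (0.0547) or 3 (0.0552). Aqp4 and S100b were below the array median on all arrays, and the list summed to 8.68 to 8.72, 8.47 to 8.67 and 8.57 to 8.70. The part of these cell types in the members' differences was not tested.

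Genes whose levels followed each member most closely over the 9 arrays were found by Pearson's r. Since the 9 points share 3 groups, a high r mainly restates the difference between cultures. For Mapt these were Csmd1 (r = 1.000), Gabbr2, a GABA-B receptor subunit, and Gria1, an AMPA receptor subunit, and for Nefl they were Cacng3 (r = 0.999), an auxiliary subunit of AMPA receptors, Cdh8 and Gria1. Stmn2 was followed by Sybu (r = 0.999), which links cargo to kinesin, Csmd1 and the NMDA receptor subunit Grin2b. Gap43 was followed by Adam23 (r = 0.999), Ina by the ephrin receptor Epha7 (r = 0.995) and Map2 by Mmp16 (r = 0.997). Map1b was followed by Kcnip2 (r = 0.992), and Nefh by Rsph9 (r = 0.984). Between 1415 and 1778 other genes had r above 0.95 with each of these members except Map1b (564) and Nefh (49). Over the 28 pairs of members r of the levels was 0.82 to 1.00.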

How the data were processed

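Per the labels, 100 ng of RNA went into each cDNA reaction. Values were deposited as log2 levels, 1 for each probe set, which the authors computed with oligo and RMA, per the submitters' processing notes; versions, genome build and detection calls are not given in the sources used here. Of 41345 probe sets 23521 had 1 gene symbol, 1814 several and 16010 none, and those with 1 symbol were used. All 9 members matched the RefSeq mouse gene table by gene number. Precision is limited by the number of arrays.

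One limma model (version 3.58.1, R 4.3.3; lmFit and eBayes) was fitted to the 3 groups over 13012 genes, with two-sided tests and Benjamini-Hochberg adjustment at 0.05. Predicted mixtures took the share from genes at least 4-fold apart, members left out; its error is not in that test. Scripts were tested on simulated data. The members and lists were chosen with earlier results of these data known. Named are all members, up to 4 genes per related list with the largest neuron minus precursor difference past the threshold without overlap, the 3 closest genes by r per member and genes that complete a count of few; Stmn1, Nfasc, Prph, Aldh1l1, Dcn and Lum were added after their values were seen. Precursor and co-culture arrays of 1 number deviated together over all tested genes (r = 0.34, 0.30 and 0.16), which meets the rule for pairing that every r is over 0.1. Co-culture and neuron arrays did not meet it (-0.0051, 0.27 and 0.17), nor did neurons and precursors. The 3 values of r are not independent, since the deviations of a group cancel. The main p-values do not use this pairing, and the replicate block was set over all 3 groups, neurons included.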

Additional observations from a re-analysis of the deposited data

How the results depend on the processing

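Each comparison was repeated with other filters, scalings, array weights, a variance trend, a replicate block, the mean of the probe sets and with each array left out. Also counted were fits with probe set 17301590 read as Nefm and, between cultures, of only the 2 groups compared. Each member had 1 probe set of its own, so the mean of the probe sets left member levels unchanged. Between 2 cultures, another filter or leaving out an array of the third culture could change only a member's p-value, not its difference. Between neurons and precursors, co-culture and precursors, and co-culture and neurons, all 151 values of the 8 members per comparison kept their direction and their side of the threshold, including those with the replicate block; Nefh fell below the filter at the 75th percentile and had no value there. With cyclic loess or centred arrays the median difference of all genes moved by at most 0.038. For 29 named genes of the related and marker lists, 542 of 547 values for neurons against precursors kept direction and side, and Stmn1, at -0.025, changed sign with cyclic loess (0.019). For 21 of them 361 of 396 values for co-culture against precursors did so, and Vim, at -0.013, changed sign with array weights (0.0041) and without 1 array (-0.049 to 0.029). The count of members called against the predicted mixture, 1, was not stable. It was 0 without the filter, with centred arrays, with cyclic loess, with the replicate block and at a share from genes high in neurons or specific to direction. It was 2 with the filter at the 75th percentile, array weights or an intensity trend, 3 at a share from genes high in precursors, and 0 to 0 with 1 array left out. Departures from the mixture that changed sign all missed the threshold. At the share from genes high in neurons, and equally at the share specific to direction, Gap43 was at -0.032, Ina at -0.0013, Map1b at -0.0039 and Nefh at -0.0031. Map1b was at -0.0020 with cyclic loess and at -0.0028 to 0.017 with 1 array left out, and Nefh at -0.023 to 0.056 with 1 array left out. The causes of these changes were not tested. Nefh read close to the array median and Nefm below it, and Nrgn and Sptbn4 were dim in precursors. The effect of low signal on these genes was not tested.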

Other observations

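Deviations of the members from their group means, which leave out the difference between cultures, went both ways. Over the 28 pairs r of these deviations, across 9 arrays of 3 groups, had a median of 0.042. It was above 0.4 for 5 pairs, highest for Ina with Map1b (0.74) and Map2 with Map1b (0.61), and below -0.4 for 6, lowest for Nefl with Gap43 (-0.71) and Nefl with Map2 (-0.71). With so few arrays, values past 0.4 in size are common between unrelated genes too, though their share among other gene pairs was not computed. The named pairs are the extremes of 28, and no pair was tested.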
